A study of Mus musculus with 16 samples.

Results

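The 42 genes described here repair DNA crosslinks, strand breaks, damaged bases and mismatches. They were taken by their symbols from the gene lines of the count files, and all 42 of 42 were found, each on 1 of 53700 lines. Together they received between 0.0730% and 0.0955% of the counts of a library. RNA was sequenced in bulk from microglia, the resident macrophages of the brain, sorted by flow cytometry from whole mouse brains as live CD11b-high, CD45-intermediate, Ly6c-negative cells after mechanical dissociation in the cold. The 4 groups were wild-type (WT) and Ercc1 knockout (KO) mice at 6 weeks of age and WT and KO mice at 12 weeks, with 4 libraries each, and all came from a C57Bl6J/FVB cross. The labels do not say which Ercc1 alleles the KO mice carried or whether the deletion was limited to a cell type, and the series title calls the mice a model of accelerated aging. By sex, each genotype had 2 male and 2 female libraries at 6 weeks and 3 male and 1 female libraries at 12 weeks. One 12-week WT library is numbered 5_6 in its label, which does not say what the numbers stand for, and nothing states that libraries came from separate animals, so p values measure the spread between these libraries.

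ERCC1 forms, with XPF, a nuclease that cuts DNA beside bulky lesions and beside crosslinks between the strands. At a crosslink met by a replication fork, the Fanconi core complex attaches ubiquitin to the FANCD2-FANCI pair, the crosslink is cut free, and the break that remains is mended by homologous recombination, which copies an intact sister strand. Cells that do not divide join broken ends directly by non-homologous end joining. Base excision repair replaces single damaged bases, and mismatch repair corrects errors of replication. Many genes of recombination and crosslink repair are transcribed mainly in dividing cells, where E2F factors act on their promoters. The question put to the data was whether any of these pathways was raised in microglia in which Ercc1 was low.

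The promoter of Ung, the only member that passed the test between genotypes, and that of Chek2 are printed here because they differ in a match to an E2F-type motif. Both are the 250 bases before the annotated start, from RefSeq in build GRCm38.p6, on the plus strand. Capitals mark the motif match, and no coordinates of the files' own build, GRCm39, are given.
Ung, chr5:114130185-114130434: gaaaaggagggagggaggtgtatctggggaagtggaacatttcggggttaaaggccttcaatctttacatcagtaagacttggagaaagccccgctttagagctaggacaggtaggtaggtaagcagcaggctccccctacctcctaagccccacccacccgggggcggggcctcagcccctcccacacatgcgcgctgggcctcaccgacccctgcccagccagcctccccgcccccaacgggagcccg
Chek2, chr5:110839733-110839982: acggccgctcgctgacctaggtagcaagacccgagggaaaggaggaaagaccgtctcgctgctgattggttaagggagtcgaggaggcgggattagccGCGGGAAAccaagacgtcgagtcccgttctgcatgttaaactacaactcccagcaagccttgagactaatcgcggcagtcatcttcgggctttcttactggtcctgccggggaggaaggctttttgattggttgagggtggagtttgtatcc
The motif was searched on both strands, as TTTCCCGC, TTTCGCGC, TTTGCCGC and TTTGGCGC, in the 300 bases from 250 before to 50 after each start. It was present in 704 of 27025 genes (2.6%) and in 7 of the 35 members with a promoter in the table (20%), namely Brca2, Chek2, Fancg, Lig1, Msh6, Rad51c and Xrcc6. Chek2 is shown because it had the lowest unadjusted p of these 7. A match is a description of the letters and no evidence of binding.

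Levels are given in CPM, a gene's count scaled to the total of its library, on library sizes scaled by the trimmed mean of M values (TMM). Total counts ran from 7882182 to 22142972 per library. Of the 53700 lines, 17090 had enough counts to be tested, and 41 of the 42 members were among them. Fancf, which encodes an adaptor of the Fanconi core complex, was the exception, with 0 to 0.970 CPM in every library. For Ercc1 itself the KO libraries all lay below the WT libraries at either age, with a mean at 19.3% of that in WT at 6 weeks (exact permutation p = 0.0286, the smallest that 4 against 4 allows) and at 20.7% at 12 weeks (same exact p). Without WT replicate 8, which had 49.2 CPM, the 12-week value was 38.2%. In the model over all genes Ercc1 did not pass (edgeR adjusted p = 0.209 and 0.105). Summed microglia markers were at least 56606 CPM in every library, and were lower in all KO than in all WT libraries at both ages. Summed markers of border-associated macrophages were higher in all KO libraries, with 51.1 to 94.4 CPM in WT and 129.6 to 291 CPM in KO at 6 weeks, and 7.79 to 54.2 CPM in WT and 112 to 187 CPM in KO at 12 weeks. Monocyte markers summed to 6.17 to 18.7 CPM in WT and 9.37 to 36.7 CPM in KO at 6 weeks, with overlap, and to 1.08 to 11.4 CPM in WT and 14.9 to 31.6 CPM in KO at 12 weeks, where all KO libraries were higher and 3 of the 6 markers had no count in WT. Endothelial and mural markers summed to 52.9 to 81.7 CPM in WT and 11.4 to 43.6 CPM in KO at 6 weeks, where all KO libraries were lower, and overlapped at 12 weeks. Neuron markers summed to between 577 and 1728 CPM in a library, astrocyte markers to between 241 and 416 CPM and oligodendrocyte markers to between 203 and 348 CPM. Each of these sums overlapped between genotypes at both ages. The mean neuron sum in KO was 0.780 times that in WT at 6 weeks and 0.749 times at 12 weeks. Neutrophil markers summed to 62.3 CPM in 6-week WT replicate 2 and to at most 8.72 CPM in any other library. T, NK and B cell markers summed to at most 3.74 CPM in a library. The part of these cell types in any result below was not tested. The 12-week WT libraries 3 and 8 stood apart from the other libraries of their group in earlier results of these data, so results of the 12-week comparison are also given without them where that changes the call.

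None of the 41 members passed the test at 6 weeks (edgeR quasi-likelihood test with Benjamini-Hochberg adjustment over all genes, threshold 0.05), where 0.796% of all genes rose and 0.0761% fell, and none passed with DESeq2, where 1.5% rose and 0.655% fell. At an unadjusted p under 0.05, 1 was higher in KO (Chek2), against 4.65% of all genes, and 1 was lower (Mre11a), against 2.67%. At 12 weeks 1 of the 41 members rose in KO (2.44%), Ung, against 2.03% of all genes, and 0 fell, against 0.954%. DESeq2 likewise called only Ung, against 3.47% of all genes higher and 2.05% lower. At an unadjusted p under 0.05, 3 were higher (Ung, Rad51b and Palb2), against 7.66% of all genes, and 1 was lower (Polb), against 6.7%. The share of members that rose at 12 weeks was close to that of all genes, and on the unadjusted counts the members' share was close to that of all genes or below it.

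The members' median difference was small, while single members ran from a log2 difference of -1.02 to 3.40 at 6 weeks and -1.35 to 9.24 at 12 weeks. The median log2 difference of the members, KO over WT, was 0.15 at 6 weeks, with 28 above 0 and 13 below. The median of all genes was -0.02, with 8232 of 17090 above 0. At 12 weeks the members' median was 0.12, with 24 above 0 and 17 below. The median of all genes was then -0.03, with 8197 of 17090 above 0. The summed level of all 42 members was 845 CPM in KO and 812 CPM in WT at 6 weeks, a ratio of 1.04, and 862 and 848 CPM at 12 weeks, a ratio of 1.02, with overlapping libraries at both ages.

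A p that misses the threshold does not show equal levels, so the intervals were read against a doubling. At 6 weeks the upper bound of the 95% interval lay below a doubling for 19 of 41 members, and at 12 weeks for 18. The interval lay within a halving and a doubling for 14 members at 6 weeks and 9 at 12 weeks. A doubling was not excluded at this depth and spread for 22 members at 6 weeks and 23 at 12 weeks. By the same annotation as used for Apex1 below, GENCODE M21, 9 members share over 10% of their exon bases with another gene (Apex1, Lig3, Fancc, Fanci, Trp53bp1, Fancf, Fancl, Ogg1 and Fanca), so their counts are uncertain where strand was not used. The spread between libraries, as the biological coefficient of variation of the model, ran from 0.180 for Apex1 to 2.01 for Brca1, with a median of 0.429 over the members and 0.468 over all genes tested.

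**Figure D1:**
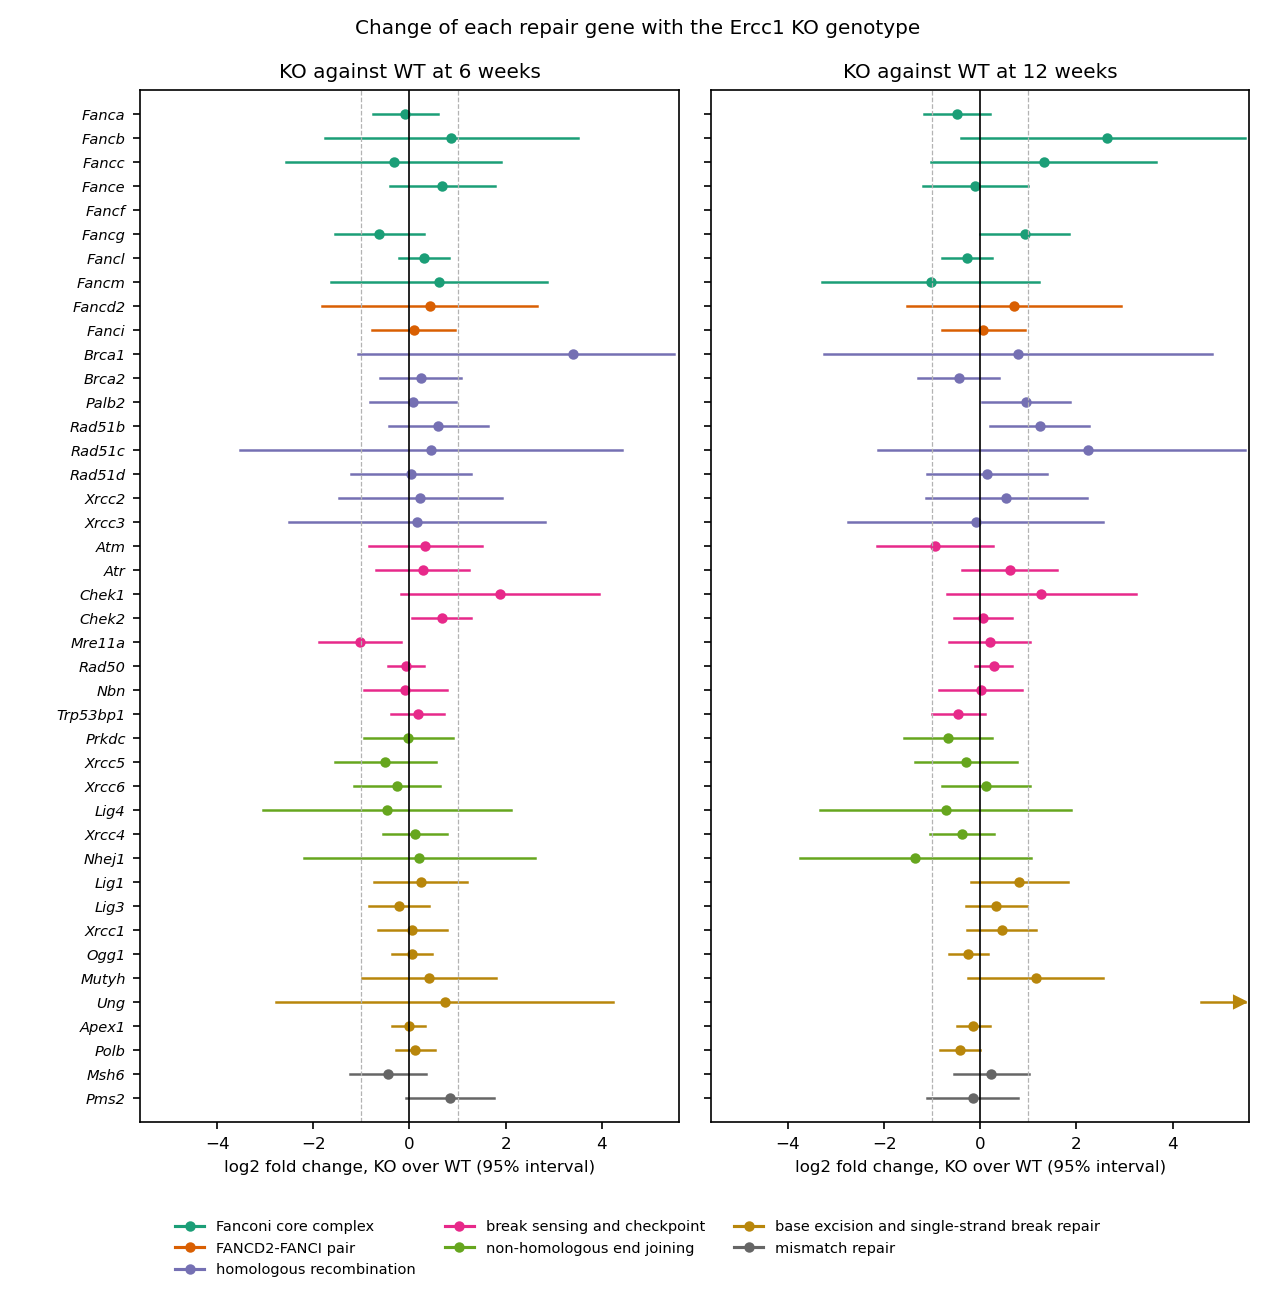
Log2 difference of KO against WT for the 41 tested members at 6 weeks and at 12 weeks, grouped by role, with 95% intervals on a log2 axis cut at 5.5 on either side. Most intervals cross 0, and the value of Ung at 12 weeks, 9.24, lies off the axis and is drawn as an arrow.

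The Fanconi core complex recognises forks stalled at crosslinks and holds the ubiquitin ligase FANCL. None of its 7 tested members passed at either age, and their summed level in KO was 1.03 times that in WT at 6 weeks and 1.16 times at 12 weeks, with overlapping libraries. Fancg, a scaffold subunit, had estimates of opposite sign at the 2 ages. It had 37.1, 17.6, 36.1 and 26.8 CPM in 6-week WT and 35.1, 10.1, 19.1 and 12.9 CPM in 6-week KO, a log2 difference of -0.63 ± 0.43 (SE; edgeR adjusted p = 0.920). The 12-week values were 19.7, 37.5, 11.2 and 11.2 CPM in WT and 40.3, 26.04, 40.01 and 44.4 CPM in KO, 0.93 ± 0.44 (edgeR adjusted p = 0.348). The groups overlapped at both ages, at 12 weeks through the single WT library 4, and the difference between the 2 effects did not pass (log2 1.56 ± 0.62, edgeR adjusted p = 1.000).

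Fancb, an X-linked subunit that supports the ligase, had 2.59, 5.94, 0.158 and 2.31 CPM in 6-week WT and 6.82, 3.74, 3.73 and 4.43 CPM in 6-week KO. At 12 weeks it had 7.68, 0, 0 and 1.79 CPM in WT replicates 3, 4, 5_6 and 8 and 13.4, 15.5, 4.68 and 9.03 CPM in KO, a log2 difference of 2.63 ± 1.42 (edgeR adjusted p = 0.437). One WT library, replicate 3, lay among the KO values and the replicates 4 and 5_6 had no count. Without WT replicates 3 and 8, both remaining WT libraries were at 0 and Fancb passed (edgeR adjusted p = 0.0107, the lowest over 24 alternatives, of which the highest was 0.905).

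The other core genes lay closer to no difference or had wide intervals. Fanca, a scaffold of the complex, differed by a log2 value of -0.09 at 6 weeks and -0.49 at 12 weeks. Fancl, the ligase, differed by 0.30 and -0.29, with a 12-week interval of -0.81 to 0.23. Fance, which binds FANCD2, differed by 0.69 and -0.10. For Fancc the values were -0.33 and 1.32 and for Fancm, the DNA translocase that loads the complex, 0.61 and -1.03, each with an SE above 1.

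FANCD2 and FANCI form the clamp that the core complex modifies. Fancd2 had 0, 0.913, 3.72 and 2.55 CPM in 6-week WT and 2.63, 3.45, 0.640 and 3.62 CPM in 6-week KO, and 0.216, 2.28, 9.82 and 7.39 CPM in 12-week WT and 7.58, 8.18, 7.02 and 6.89 CPM in 12-week KO. The 12-week KO libraries were close to each other and inside the WT range, and the log2 difference was 0.70 ± 1.04 (edgeR adjusted p = 0.871). Fanci had 12.7, 14.6, 13.1 and 10.3 CPM in 6-week WT and 13.5, 15.3, 16.2 and 9.37 CPM in 6-week KO, and 20.7, 12.8, 12.1 and 8.34 and 16.8, 17.6, 17.5 and 3.26 CPM at 12 weeks. Its groups overlapped at both ages, with log2 differences of 0.08 ± 0.40 and 0.07 ± 0.40, and KO replicate 4 was the lowest of all 16 libraries.

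Homologous recombination held the members that were highest in KO relative to WT by summed level. At 6 weeks the sum of its 8 genes was 66.3, 67.02, 63.9 and 63.7 CPM in WT and 72.2, 70.8, 69.1 and 106.4 CPM in KO, a ratio of 1.22. Every KO library lay above every WT library, and the difference of 14.4 CPM was 5.47 CPM without KO replicate 4. At 12 weeks the sums were 59.3, 65.8, 73.4 and 94.2 CPM in WT and 95.6, 86.9, 112.5 and 81.98 CPM in KO, a ratio of 1.29, with overlap through WT replicate 8. All 8 genes had a fitted log2 difference above 0 at 6 weeks and 6 of 8 at 12 weeks, and none passed the test at either age. For Xrcc3 at 6 weeks (3.69 CPM in KO and 4.16 CPM in WT) and Rad51d at 12 weeks (20.7 and 21.0 CPM) the group means, which have no term for sex, lay the other way. No test was made of the sum. Among the 14 role sums by age, homologous recombination at 6 weeks was the only one that did not overlap between genotypes. Over all 14 differences of a role sum at an age, leaving out 1 library changed the sign of 6, none of them homologous recombination or end joining.

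**Figure D2:**
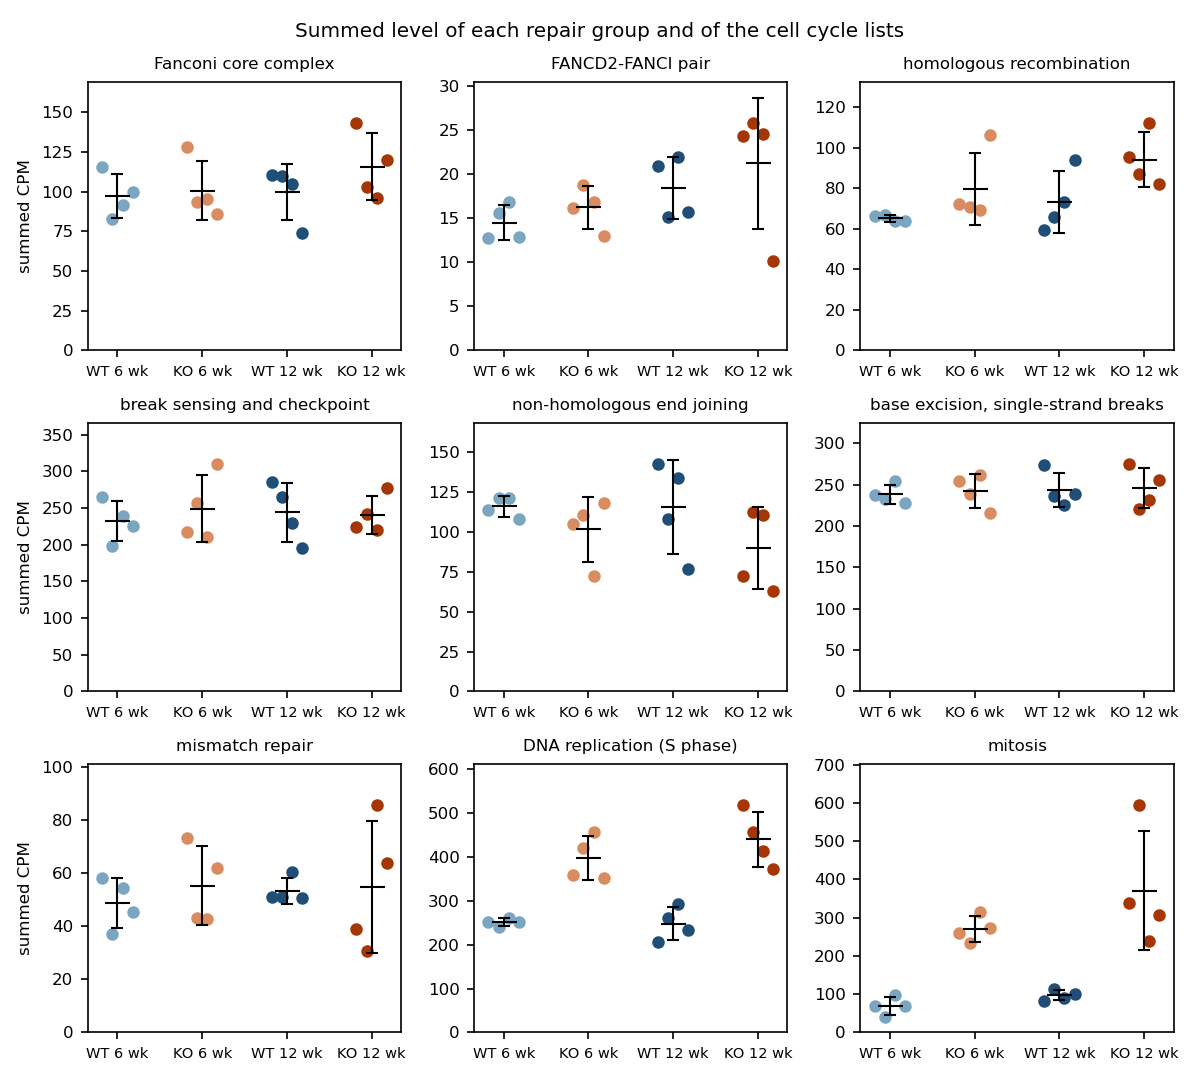
Summed CPM of each role group of the members, and of the replication and mitosis gene lists, in each of the 16 libraries (points) with the group mean and SD (bars), on linear axes from 0. The homologous recombination sum is higher in all 6-week KO than WT libraries, and all other role sums overlap between genotypes, as does this one at 12 weeks. The replication and mitosis sums are higher in all KO libraries at both ages.

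Rad51b, a paralog that helps load the recombinase, had 1.51, 5.48, 6.17 and 5.70 CPM in 6-week WT and 7.50, 8.97, 4.91 and 7.47 CPM in 6-week KO. At 12 weeks it had 3.03, 8.26, 7.72 and 7.28 CPM in WT and 13.5, 23.9, 15.1 and 8.90 CPM in KO, with every KO library above every WT library. The 12-week log2 difference was 1.23 ± 0.49, which did not pass (edgeR adjusted p = 0.237, from 0.106 to 0.552 over 24 alternatives). Palb2, which joins BRCA1 to BRCA2, had 22.7, 17.01, 11.5 and 6.55 CPM in 6-week WT and 7.21, 8.57, 25.1 and 20.5 CPM in 6-week KO, without a direction. At 12 weeks Palb2 had 16.1, 13.8, 10.6 and 11.7 CPM in WT and 20.5, 20.2, 30.5 and 29.7 CPM in KO, with no overlap and a log2 difference of 0.95 ± 0.43 (edgeR adjusted p = 0.312). In all, 4 of 41 members had every 12-week KO library above every WT library (Ung, Rad51b, Palb2 and Mutyh) and 0 had every one below, against 5.13% and 3.08% of all genes.

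Brca1, which helps resect broken ends and recruits the other factors, had 1.08, 0, 0 and 0 CPM in 6-week WT and 6.04, 3.97, 0 and 2.41 CPM in 6-week KO, and 9.08, 0, 0.526 and 2.005 and 0, 8.29, 9.97 and 0 CPM at 12 weeks. It had no count in 7 libraries, and its intervals spanned -1.06 to 7.86 and -3.25 to 4.82 on the log2 scale. Brca2, which carries the recombinase to DNA, differed by a log2 value of 0.23 ± 0.39 at 6 weeks and -0.44 ± 0.40 at 12 weeks. The remaining paralogs Rad51c, Rad51d, Xrcc2 and Xrcc3 had log2 differences between 0.04 and 0.45 at 6 weeks and between -0.10 and 2.24 at 12 weeks, with adjusted p of 0.728 or more at 12 weeks.

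ATM and ATR are the kinases that signal breaks and stalled forks, CHEK1 and CHEK2 carry the signal to the cell cycle, and MRE11, RAD50 and NBN form the complex that binds broken ends. The summed level of the 8 genes in KO was 1.07 times that in WT at 6 weeks and 0.986 times at 12 weeks. Mre11a had 22.7, 11.4, 23.2 and 28.8 CPM in 6-week WT and 5.94, 12.1, 8.74 and 15.6 CPM in 6-week KO. The log2 difference was -1.02 ± 0.40, which did not pass (edgeR adjusted p = 0.496), and WT replicate 2 lay within the KO range. In the 12-week libraries it had 21.8, 36.1, 18.9 and 20.2 CPM in WT and 17.3, 24.9, 48.7 and 21.3 CPM in KO, 0.19 ± 0.40, with overlap.

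Chek2 had 21.02, 17.4, 19.8 and 19.7 CPM in 6-week WT and 19.00, 39.4, 26.4 and 39.7 CPM in 6-week KO, where 3 KO libraries lay above all WT libraries and KO replicate 1 among them. The log2 difference was 0.67 ± 0.29 (edgeR adjusted p = 0.567), and at 12 weeks it was 0.06 ± 0.28, from 32.98, 24.7, 17.8 and 31.3 CPM in WT and 29.4, 17.00, 33.9 and 31.1 CPM in KO. Chek1 was above 0 by estimate at both ages, 1.88 ± 0.96 and 1.27 ± 0.92, at levels of at most 8.08 CPM. Rad50 was among the most even members, with log2 differences of -0.07 ± 0.18 and 0.28 ± 0.18 and intervals of -0.44 to 0.31 and -0.10 to 0.65. Nbn differed by -0.09 ± 0.40 and 0.01 ± 0.41. Atm differed by 0.33 ± 0.56 and -0.94 ± 0.57 and Atr by 0.28 ± 0.45 and 0.61 ± 0.46. Trp53bp1, which protects ends from resection, differed by 0.17 ± 0.26 and -0.46 ± 0.26.

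Non-homologous end joining was the one role group whose summed level was lower in KO at both ages. The 6 genes summed to 113.4, 121.1, 121.2 and 108.0 CPM in 6-week WT and 104.6, 110.7, 72.2 and 118.2 CPM in 6-week KO, a ratio of 0.875. At 12 weeks the sums were 142.8, 108.1, 133.9 and 76.9 CPM in WT and 72.4, 112.3, 110.7 and 62.8 CPM in KO, a ratio of 0.776. The libraries overlapped at both ages, none of the 6 genes passed, and without KO replicate 3 the 6-week difference of -14.5 CPM was -4.76 CPM. The 12-week difference of -25.8 CPM was -16.7 CPM without WT replicate 3 and -16.9 CPM without KO replicate 4.

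Prkdc, the kinase that the Ku proteins recruit to ends, had 15.1, 26.4, 22.5 and 13.1 CPM in 6-week WT and 28.1, 15.8, 16.96 and 16.3 CPM in 6-week KO, and 14.6, 24.3, 28.03 and 10.3 and 13.5, 20.9, 9.11 and 5.01 CPM at 12 weeks. Its log2 differences were -0.03 ± 0.43 and -0.67 ± 0.43 (edgeR adjusted p = 0.554 at 12 weeks). Xrcc4, the partner of ligase IV, had 16.7, 20.3, 23.96 and 22.2 CPM in 6-week WT and 17.5, 26.2, 16.96 and 28.2 CPM in 6-week KO, and 49.1, 17.4, 28.99 and 25.96 and 23.2, 14.9, 20.9 and 31.8 CPM at 12 weeks, with differences of 0.11 ± 0.31 and -0.38 ± 0.32. Both genes overlapped between genotypes at both ages. The Ku genes Xrcc5 and Xrcc6 differed by -0.30 and 0.12 at 12 weeks, Lig4 by -0.72 and Nhej1 by -1.35.

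Ung, the glycosylase that removes uracil from DNA and opens base excision repair, was the 1 member called. Ung (ENSMUSG00000029591) had 0 counts in all 4 WT libraries at 12 weeks and 12.1, 5.10, 6.16 and 2.88 CPM in the 4 KO libraries. Against a floor of 3 counts over the WT group it was at least 114-fold higher in KO (edgeR adjusted p = 0.0379), at least 81.8-fold without the highest KO library and at least 64.0-fold without the deepest WT library. That floor covers counting error only and not the spread between libraries. These folds therefore describe these libraries and do not bound the difference between genotypes. The fitted log2 change, 9.24 ± 2.13, depends on the prior count and is no bound.

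At 6 weeks the same gene had 4.10, 0.685, 0 and 0.850 CPM in WT and 1.75, 4.08, 2.45 and 0 CPM in KO, with overlap and 1 library at 0 in each group (log2 0.73 ± 1.62, edgeR adjusted p = 0.9999). Of the 12-week KO libraries, 3 lay above all 8 libraries of 6 weeks and replicate 4, at 2.88 CPM, lay among them, and all 12-week WT libraries were at 0. The mean in KO was 2.07 CPM at 6 weeks and 6.57 CPM at 12 weeks, a difference that did not pass (log2 1.51 ± 1.57, edgeR adjusted p = 0.913). From 6 to 12 weeks in WT, Ung was at least 24.4-fold lower (at least 8.88-fold without the highest 6-week library), by the same floor and with the same limit. That difference did not pass (edgeR adjusted p = 0.383). The difference between the genotype effects at the 2 ages did not pass either (edgeR adjusted p = 0.871).

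The call on Ung was not stable. It passed in 9 of 24 alternatives, among them DESeq2, and in 3 of the 16 fits that left out 1 library, with adjusted p from 0.0139 to 0.0847 in those 16. Leaving out any one of the 8 libraries of the 12-week groups ended the call. Without WT replicates 3 and 8 the edgeR adjusted p was 0.157, with 0 counts in both remaining WT libraries.

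**Figure D3:**
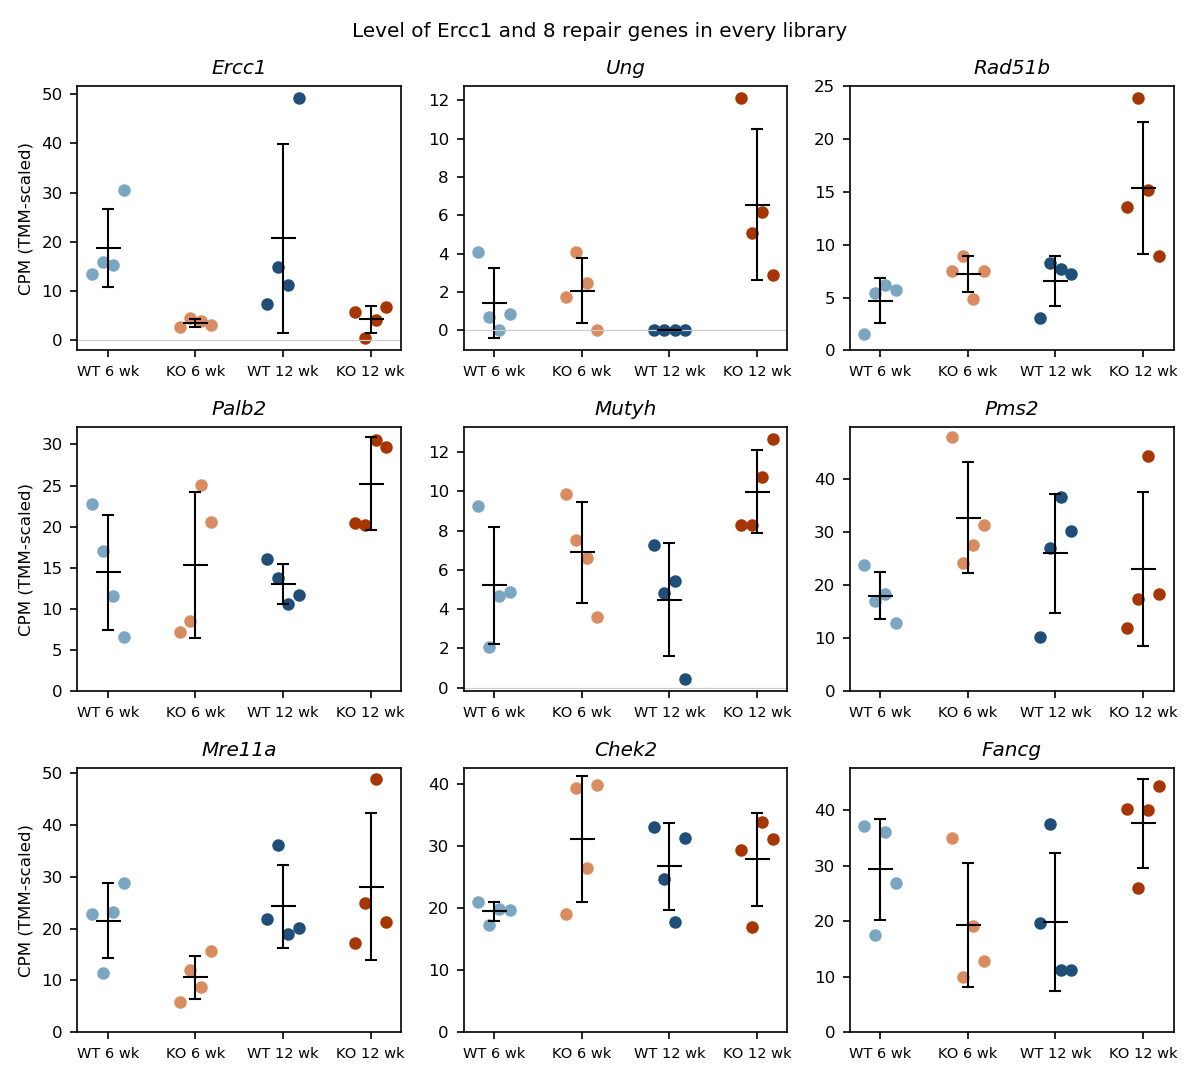
CPM of Ercc1 and 8 members in each of the 16 libraries (points), with group mean and SD (bars), on linear axes. Ung is at 0 in all 12-week WT libraries and between 2.88 and 12.1 in 12-week KO. Ercc1 is lower in all KO than WT libraries at both ages. Rad51b, Palb2 and Mutyh are higher in all KO than WT libraries at 12 weeks, and Pms2 at 6 weeks. Mre11a, Chek2 and Fancg overlap between genotypes at both ages.

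The other members of base excision and single-strand break repair did not pass. Mutyh, which removes adenine paired with oxidised guanine, had 9.27, 2.06, 4.66 and 4.85 CPM in 6-week WT and 9.84, 7.53, 6.61 and 3.62 CPM in 6-week KO. Its 12-week values were 7.25, 4.84, 5.44 and 0.422 CPM in WT and 8.28, 8.29, 10.7 and 12.7 CPM in KO, with no overlap but a log2 difference of 1.15 ± 0.66 (edgeR adjusted p = 0.471). Polb, the polymerase that fills the gap, pointed the other way at 12 weeks, with 70.3, 46.2, 54.9 and 67.95 CPM in WT and 54.2, 42.8, 40.7 and 41.4 CPM in KO. Its 12-week log2 difference was -0.42 ± 0.19 (edgeR adjusted p = 0.325), with overlap, and -0.11 without WT replicates 3 and 8. At 6 weeks Polb had 37.9, 39.5, 41.8 and 50.7 CPM in WT and 43.3, 44.4, 38.3 and 59.2 CPM in KO, 0.12 ± 0.19.

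Several genes of this group were measured tightly enough to bound a change. Ogg1, the glycosylase for oxidised guanine, differed by 0.05 ± 0.19 and -0.25 ± 0.19, with intervals of -0.36 to 0.46 and -0.66 to 0.17. Apex1, the nuclease that cuts at the emptied site, differed by -0.02 ± 0.16 and -0.14 ± 0.16, but 61.7% of its exon bases overlap Pip4p1 on the opposite strand in GENCODE M21 (GRCm38), and reads of the 2 genes cannot be told apart where the counting did not use strand. The ligase and scaffold genes Lig1, Lig3 and Xrcc1 differed by 0.23, -0.22 and 0.06 at 6 weeks and by 0.81, 0.34 and 0.44 at 12 weeks. The summed level of the 8 genes in KO was 1.02 times that in WT at 6 weeks and 1.01 times at 12 weeks.

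Mismatch repair was represented by Msh6, which helps recognise mismatches, and Pms2, which nicks the new strand. Pms2 had 23.8, 17.01, 18.4 and 12.99 CPM in 6-week WT and 47.9, 24.3, 27.6 and 31.3 CPM in 6-week KO, the 1 of 41 members with every 6-week KO library above every WT library, against 4.92% of all genes (and 0 below, against 2.96%). Its log2 difference of 0.85 ± 0.43 did not pass (edgeR adjusted p = 0.751). In the older mice it had 10.3, 27.1, 36.8 and 30.2 CPM in WT and 12.02, 17.4, 44.4 and 18.3 CPM in KO, -0.16 ± 0.44, with overlap. Msh6 had 34.2, 20.2, 36.1 and 32.5 CPM in 6-week WT and 25.1, 18.7, 15.2 and 30.7 CPM in 6-week KO, and 40.6, 23.7, 23.7 and 20.3 and 27.1, 13.1, 41.4 and 45.4 CPM at 12 weeks, with overlap at both ages and log2 differences of -0.45 ± 0.37 and 0.23 ± 0.37.

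The members were also compared between ages. From 6 to 12 weeks, 0 of 41 members passed in KO, where 0.0234% of all genes did, and 0 passed in WT, where 0.0117% did (edgeR). At an unadjusted p under 0.05 there were 3 in KO (Fancg, Mre11a and Rad51b, all higher at 12 weeks) and 2 in WT (Ung lower and Polb higher), against 8.8% and 7.44% of all genes. DESeq2 called 1 in each, Mre11a in KO, against 2.04% of all genes, and Ung in WT, against 1.78%. In KO, Mre11a and Fancd2 were higher in every 12-week than 6-week library (2 of 41 members, against 6.57% of all genes in either direction), and in WT no member was separate between ages, against 5.31%. For Mre11a the log2 difference was 1.40 ± 0.40 (edgeR adjusted p = 0.253). The difference of the genotype effects between ages passed for 0 members, against 0.00585% of all genes, with 3 at an unadjusted p under 0.05 (Fancg, Mre11a and Ung, against 4.74% of all genes) and 1 called by DESeq2 (Ung, against 0.989% of all genes).

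**Figure D4:**
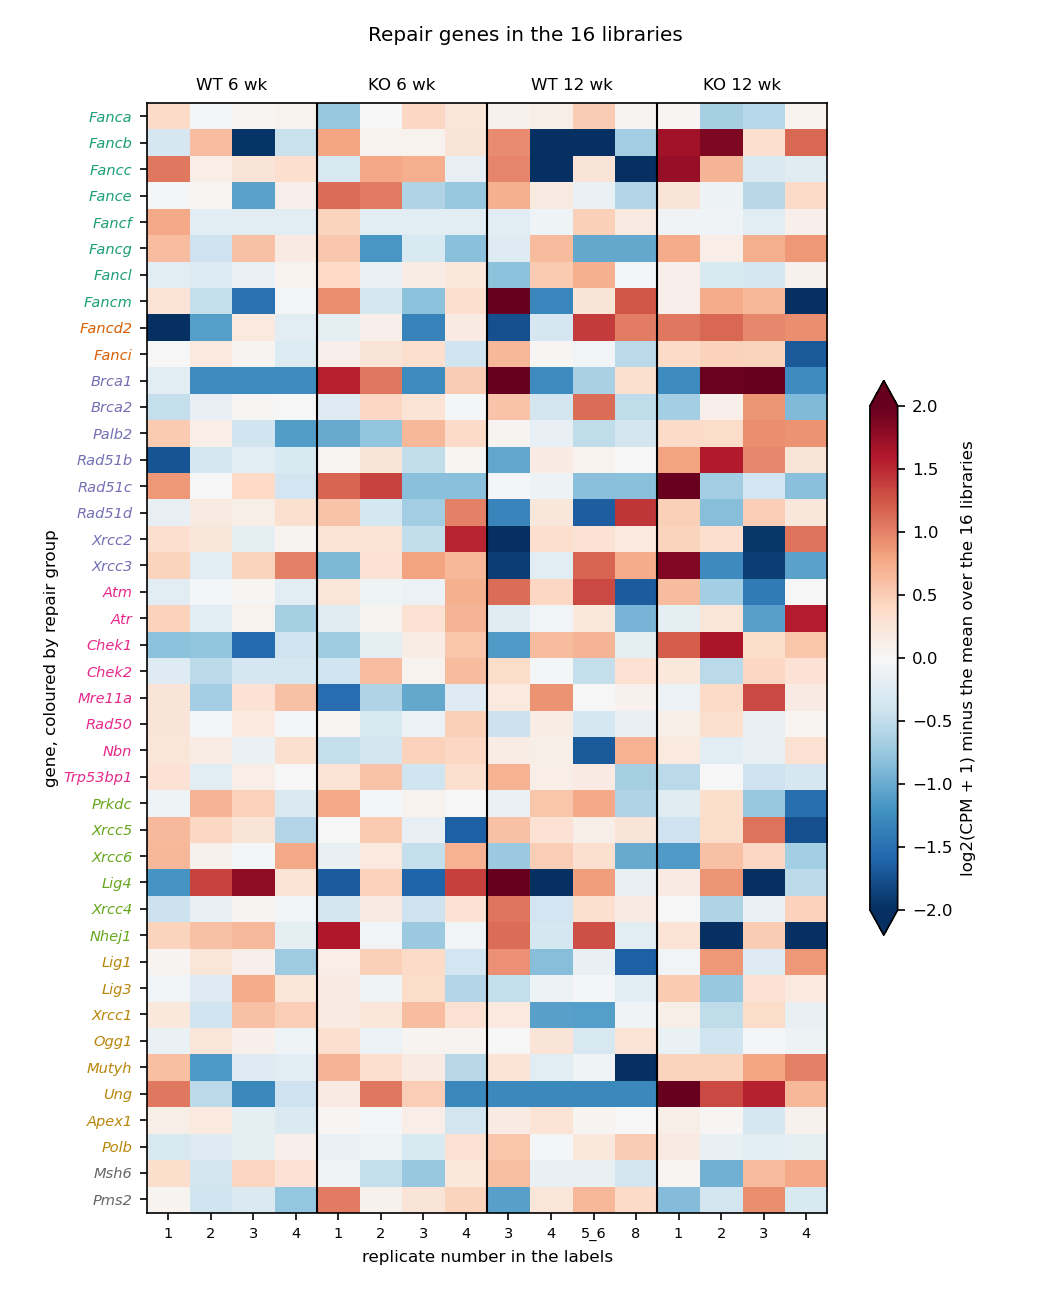
Log2 (CPM + 1) of each member in each of the 16 libraries, relative to the gene's mean over libraries, grouped by role with colours capped at 2 on either side. Ung is below its mean in all 4 WT libraries at 12 weeks and above it in all 4 KO libraries at 12 weeks.

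Other genes of the same pathways were read in the same way. Of 77 further repair genes on 6 lists, 74 were tested and 0 passed at either age (edgeR), with 3 higher at an unadjusted p under 0.05 at 6 weeks and 5 higher at 12 weeks and none lower, against the 4.65% and 7.66% of all genes higher given above. DESeq2 called 0 at 6 weeks and 3 at 12 weeks, all higher in KO (Dna2, Neil3 and Fen1, named after their values were seen), against 3.47% of all genes. Their median log2 difference was 0.11 at 6 weeks and 0.04 at 12 weeks. The lists differed among themselves. The 13 further base excision repair genes summed to 1.29 times the WT level at 6 weeks and 1.44 times at 12 weeks, with overlapping libraries, which is above the ratios of the homologous recombination members. All 3 of the genes higher at an unadjusted p under 0.05 at 6 weeks were among the 12 of them tested, whose median log2 difference was 0.56 at 6 weeks and 0.04 at 12 weeks. Further homologous recombination genes summed to 1.13 and 1.09 times the WT level and further end joining genes to 0.933 and 0.985 times.

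By summed level, genes of DNA replication and mitosis stood higher in KO in the same libraries. The summed level of 22 replication genes was 1.58 times that of WT at 6 weeks and 1.78 times at 12 weeks, and that of 20 mitosis genes was 3.91 and 3.81 times, with every KO library above every WT library in all 4 cases. By fitted log2 difference, 17 of the 22 replication genes were above 0 and 5 below at 6 weeks, and 18 and 4 at 12 weeks. All 20 mitosis genes were above 0 at both ages. Of the 22 replication genes 0 rose at 6 weeks (edgeR; 3 were higher at an unadjusted p under 0.05, and DESeq2 called 2), and 1 rose at 12 weeks (7 at an unadjusted p under 0.05, and DESeq2 called 5), against the shares of all genes given above for each rule. The gene was Mcm6, a subunit of the replicative helicase, which rose from 15.5 ± 7.28 to 49.4 ± 13.1 CPM (SD, n = 4). Of the 20 mitosis genes 3 rose at 6 weeks (Top2a, Ccnb2 and Nusap1) and 2 at 12 weeks (Top2a and Bub1), against 0.796% and 2.03% of all genes. At an unadjusted p under 0.05, 12 and 13 were higher, against 4.65% and 7.66% of all genes. DESeq2 called 5 higher at each age, against 1.5% and 3.47%. Top2a, the topoisomerase that untangles chromosomes, rose from 9.64 ± 4.29 to 47.3 ± 15.4 CPM at 6 weeks and from 14.1 ± 7.98 to 47.0 ± 15.3 CPM at 12 weeks. In bulk RNA a larger share of dividing cells and more RNA per cell cannot be told apart, and the part of these genes in the levels of the repair members was not tested. The E2F-type motif was present in 9 of 18 replication genes with a promoter in the table (50%), in 1 of 17 mitosis genes (5.88%) and, as given above, in 20% of the members.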

How the data were processed

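Bulk RNA was sequenced from sorted microglia in 16 libraries, 4 in each of 4 groups of genotype and age. For each library the authors deposited a file of raw counts, 1 line per gene with its Ensembl identifier and symbol. Per the submitters' processing notes, the tools were FastQC 0.11.9, cutadapt 2.10, TopHat, SAMtools 1.10, Picard 2.13.2 and HTSeq 0.11.0, with the mouse build GRCm39. Neither the strand setting nor the annotation release or the treatment of ambiguous reads is given in the sources used here.

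The counts were fitted by edgeR 4.0.16, with limma 3.58.1, under R 4.3.3. Genes were kept by filterByExpr by group with a minimum count of 10, which left 17090 of 29343 genes with a count, and library sizes were scaled by TMM. A robust quasi-likelihood model with terms for the 4 groups and sex was fitted to all 16 libraries, and two-sided p values were adjusted over the genes tested by the Benjamini-Hochberg method. The SE of a log2 difference is its absolute value divided by the square root of F, and intervals have a confidence level of 0.95. For genes with few counts both depend on the prior count. Where no library of a group had a count, 3 counts over that group served as the floor, which covers counting error only, since reads without molecular identifiers are not independent molecules. In 1 library that floor corresponds to 0.132 to 0.376 CPM. The fitting was tested on simulated counts with planted changes. These were planted only in better expressed genes, at a spread typical of genes of their level. The simulation therefore does not bear on genes with few counts or a wide spread, such as Ung and Brca1.

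The members and lists were chosen with earlier results of these data known. Values by library are given for members past the threshold, members whose genotypes do not overlap, the 2 members of each role with the lowest unadjusted p between genotypes, and members without a count in a group. Genes outside the members are named where they passed the test between genotypes and stand on a repair or cell cycle list. Genes followed across alternatives were picked after their values were seen. The alternatives were DESeq2 1.42.0 and its size factors, no filter, a minimum count of 30, no sex term, 1 age at a time, leaving out libraries, and a block for the replicate number. Deviations of same-numbered KO and WT libraries from their group means were only weakly correlated (at most 0.0705), so the numbers were not used to pair them.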

Additional observations from a re-analysis of the deposited data

Results flagged for a closer look

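Of 104 sets of 4 libraries, 11 held 1 library far from the other 3. The rule used flags about 1 in 20 sets of independent, normally distributed values. The sets here share genes and were partly chosen by p, so their count cannot be read against that rate. Each of the 11 is a value of 1 library on its own.

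Among single genes, Fanci was at 3.26 CPM in 12-week KO replicate 4, where the others lay between 16.8 and 17.6 CPM. Mre11a was at 36.1 CPM in 12-week WT replicate 4, above 18.9 to 21.8 CPM in the others. Polb was at 54.2 CPM in 12-week KO replicate 1, above 40.7 to 42.8 CPM. Prkdc was at 28.1 CPM in 6-week KO replicate 1, above 15.8 to 16.96 CPM. Rad51b was at 1.51 CPM in 6-week WT replicate 1, below 5.48 to 6.17 CPM. Ercc1 was at 30.6 CPM in 6-week WT replicate 4, above 13.5 to 15.98 CPM.

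Among sums, the Fanconi core complex was at 74.1 CPM in 12-week WT replicate 8, below 105 to 111 CPM in the others of its group. The FANCD2-FANCI pair was at 10.2 CPM in 12-week KO replicate 4, below 24.3 to 25.8 CPM, a library in which Fanci was low. Homologous recombination was at 106 CPM in 6-week KO replicate 4, above 69.1 to 72.2 CPM. Mismatch repair was at 60.5 CPM in 12-week WT replicate 5_6, above 50.4 to 50.8 CPM. All members summed to 821 CPM in 12-week KO replicate 2, below 872 to 881 CPM.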

How the results depend on the processing

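At 6 weeks 0 members passed under all alternatives run. At 12 weeks the count was 0 to 1 over the fits that left out 1 library (0 in 13 of 16), and 0 with the replicate block. With the block the edgeR adjusted p of Ung was 0.253, and 0 members passed in the other 4 comparisons, where 0 had passed without it. The block joined libraries of the same number across both ages. The numbers 5_6 and 8 occurred only in 12-week WT, so each of those libraries was taken up by its own term. The 12-week WT level in that fit therefore rested on replicates 3 and 4 alone. Same-numbered libraries had correlations of deviations of 0.0148 to 0.0705 at 6 weeks, where 3 of 4 KO libraries correlated best with their own number, and of -0.0201 to -0.000117 at 12 weeks. Without 12-week WT replicates 3 and 8, Fancb replaced Ung as the 1 member called. DESeq2 called 1 member in 12 against 6 weeks in KO (Mre11a), 1 in WT (Ung) and 1 in the difference of the genotype effects (Ung), and without a filter Ung was the 1 called in WT and the 1 in that difference. The cause of these changes was not tested.

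Over all genes at 12 weeks, 510 passed in the main model, 1556 with DESeq2, 1073 without a filter, 204 with the 8 libraries of that age alone, 307 without WT replicates 3 and 8 and 181 with the replicate block. At 6 weeks 149 passed, 581 with DESeq2 and 353 without a filter. Leaving out 1 of the 8 libraries of the age gave 82 to 100 at 6 weeks and 328 (without KO replicate 2) to 464 at 12 weeks, so the shares of all genes that the members are read against move as well.

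Ercc1 in KO stood at 16.7% to 38.2% of WT at 12 weeks over the fits that left out 1 library. Without a 12-week KO library its exact permutation p was 0.114 to 0.143. The remaining KO libraries, at most 6.77 CPM, still lay below all WT libraries, at least 7.46 CPM, and the cause of the higher p was not tested. No result changed sign past the threshold. Of the 14 KO minus WT differences of a role sum at an age, none changed sign under the other scalings. Leaving out 1 library moved 13 of them by over 1.5 times and changed the sign of 6, those of base excision repair and break sensing at both ages (-1.89 to 13.5 and -3.70 to 29.6 CPM at 6 weeks, -7.37 to 12.6 and -19.9 to 10.4 CPM at 12 weeks), of the Fanconi core at 6 weeks (-5.81 to 9.35 CPM) and of mismatch repair at 12 weeks (-8.71 to 9.72 CPM). Depth and spread left a doubling unexcluded for 22 of the 41 members at 6 weeks and 23 at 12 weeks.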
